A study of Mus musculus with 2 samples.

Results

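The later-named miRNA genes of the mouse are described here in the embryonic facial prominence, the group of buds that form the face and jaws. Members were chosen by symbol alone: Mir followed by a number from 1000 to below 4000, with any suffix, without Mir1193, Mir1197 and Mir3074-1. This gave 153 of the 1973 gene identifiers in the deposited tables, and the 465 genes numbered below 1000 served as the comparison. Small RNA was sequenced from facial prominences of B6NCrl embryos at embryonic day 12.5, with healthy males and females pooled. There was 1 group with 2 biological replicates, a pool of 120 embryos (replicate 1) and a pool of 88 embryos (replicate 2). Tests on reads therefore compare 2 pools, not conditions, and in whole tissue fewer cells of a type cannot be told apart from less RNA per cell.

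miRNA genes are numbered in the order in which they were described, so low numbers went mostly to abundant and conserved miRNAs found by cloning, and higher numbers mostly to those found by deep sequencing. A canonical miRNA is cut from a hairpin by Drosha with its partner Dgcr8 and then by Dicer, and 1 or both arms of the hairpin are kept as mature strands that pair with target mRNAs through the seed, bases 2 to 8. Other hairpins come about without Drosha: a mirtron is a short intron whose spliced lariat, once opened, folds into the hairpin, and some small RNAs assigned to miRNA genes overlap tRNA genes.

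The mature strands of 8 of the 9 members with the highest levels are shown, to let their seeds be compared: no seed is repeated among them. They are given 5′ to 3′ from RefSeq (GRCm38.p6) with the seed in capitals. Each table entry joins both arms of a hairpin, so which strand was read was not resolved.
miR-1983: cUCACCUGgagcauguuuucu
miR-1306-5p: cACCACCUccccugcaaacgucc
miR-1306-3p: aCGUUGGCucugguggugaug
miR-3102-5p: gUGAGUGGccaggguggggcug
miR-3102-5p.2-5p: gGUGGUGCaggcaggagagcc
miR-3102-3p.2-3p: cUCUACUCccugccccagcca
miR-3102-3p: gAGCACCCcauuggcuacccaca
miR-1981-5p: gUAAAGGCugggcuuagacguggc
miR-1981-3p: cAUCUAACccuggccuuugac
miR-1247-5p: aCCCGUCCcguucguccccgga
miR-1247-3p: cGGGAACGucgagacuggagc
miR-3072-5p: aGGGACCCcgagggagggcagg
miR-3072-3p: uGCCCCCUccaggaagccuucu
miR-3099-5p: cCAGCUUCcuuccagcccuug
miR-3099-3p: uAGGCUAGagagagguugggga
miR-1298-5p: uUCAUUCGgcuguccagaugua
miR-1298-3p: cAUCUGGGcaacugauugaacu

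Over all members, 206 mature strands of 136 genes matched RefSeq and held 199 distinct seeds, and 7 seeds were carried by at least 2 members. Of the 206 strands, 11, from 11 members, had the seed of a miRNA numbered below 1000 or of let-7. How many would share such a seed by chance was not tested. Of the 11 members, 5 were detected. These 5 were Mir1983 (seed of miR-412-3p), Mir3102 (miR-702-5p), Mir3475 (miR-96-3p), Mir1947 (miR-674-5p) and Mir1943 (miR-149-3p). The best known seeds among the members belonged to genes without a read. Mir1961 carries the let-7 seed, which represses growth and early-embryo genes, and Mir1928 that of miR-221 and miR-222, and both had 0 counts in each library. Their mature strands are short, 17 bases each.
miR-1961: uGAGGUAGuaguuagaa
miR-1928: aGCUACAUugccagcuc

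Of 11414919 reads in replicate 1, 4719337 were counted in sense to miRNA genes, and of 12792420 reads in replicate 2, 5929220 were. Levels are in CPM, a gene's sense counts scaled to 1000000 such counts per library, and were not divided by length, since mature strands are of like length. Detection here means 10 or more counts in each library, equal to 2.12 CPM (replicate 1) and 1.69 CPM (replicate 2). A gene without a read may still stand at up to 3 counts (0.636 and 0.506 CPM). All 5 markers of mesenchyme and cartilage and all 7 of epithelium were detected, with summed levels of 62763 and 62527 CPM and of 30805 and 35800 CPM in replicates 1 and 2. Eye markers summed to 891 and 1671 CPM, striated muscle markers to 1176 and 1550 CPM, neural markers to 811 and 796 CPM, blood markers to 511 and 627 CPM, and the endothelial Mir126a stood at 29030 and 27230 CPM. All 3 eye and all 4 blood markers were detected, but only 2 of 6 neural and 4 of 7 striated muscle markers in the tables. Most of the neural sum came from Mir137 (mean 789 CPM) and most of the muscle sum from Mir206 (mean 1270 CPM). Among neural markers, Mir9-2 and Mir124a-1 were at 0, and among muscle markers Mir133a-2 was at 0. Reads that map to several places are not in these counts, and their part in these zeros was not tested.

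The later-named genes mostly had few or no counts at this depth. Of the 153, 48 were detected (31.4%), 49 had some counts without reaching the minimum, and 56 had 0 counts in both libraries. Of these 56, 18 share a stretch of sequence with another miRNA gene and 38 do not. Since reads that map to several places are not counted, a count of 0 does not show that a gene was silent. Of the 465 genes numbered below 1000, 285 were detected (61.3%). Of the 421 genes numbered 4000 and above, 39 were detected (9.26%), and 395 of all 1973 identifiers were. The detected members had a median level of 10.2 CPM, against 279 CPM for the detected genes numbered below 1000. Since a minimum count sets the floor of both lists, the medians are to be read with the shares detected. Only 5 of the 48 exceeded 100 CPM and 24 lay under 10 CPM, whereas 196 of the 285 genes numbered below 1000 exceeded 100 CPM and 24 lay under 10 CPM. When the 395 detected genes were ranked by level, members had a median rank of 314.5 and genes numbered below 1000 a median rank of 151, and 31 members fell among the lowest 100.

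**Figure D1:**
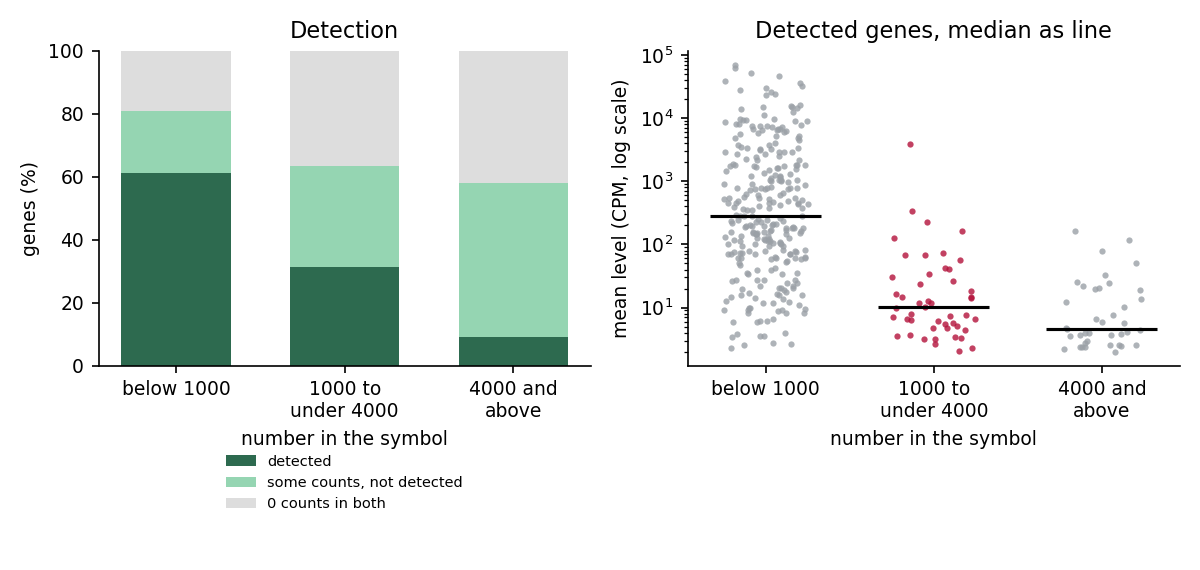
Left, the percentage of genes detected, with some counts but not detected, and with 0 counts in both libraries, by the number in the symbol; right, the mean CPM of 2 libraries on a log axis for each detected gene, with the median of each group as a line. Detection was 61.3% below 1000, 31.4% for the later-named genes and 9.26% from 4000, and the medians were 279, 10.2 and 4.50 CPM.

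Together the members held 27992 counts in replicate 1, a share of 0.593% (exact Clopper-Pearson 95% interval 0.586 to 0.600), and 29702 counts in replicate 2, a share of 0.501% (0.495 to 0.507). The mean share was 0.547% ± 0.0652 (SD, n = 2), against 92.2% ± 0.481 for the genes numbered below 1000. These intervals cover counting error only. Within the range of numbers, 22 of 76 genes from 1000 up to 2000 were detected, 1 of 4 from 2000 up to 3000, and 25 of 73 from 3000 up. The medians of those detected were 12.4 CPM in the lowest range and 9.95 CPM in the highest. The 1 detected gene of the middle range was Mir2137, in an intron of Zfp185 on the X chromosome, at 6.99 and 2.53 CPM.

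Most of the members' reads came from a single gene that overlaps a tRNA. Mir1983 had 19905 counts in replicate 1 and 20928 in replicate 2, or 4218 and 3530 CPM (mean 3874 ± 487, SD, n = 2). This was 71.1% (70.6 to 71.6) and 70.5% (69.9 to 71.0) of all member counts. Both libraries placed it far above the next member, and it was the only member over 1000 CPM and the only member among the 100 highest detected genes, at rank 54. Without it the members' share fell to 0.171% and 0.148%, and the highest remaining level was 342 CPM.

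The hairpin of Mir1983 (GRCm38, chromosome 13, 21896918 to 21897049, minus strand, 132 bases) lies in no host gene. The RefSeq tRNA gene n-TItat14 (21896938 to 21897031, 94 bases), named for isoleucine and the anticodon TAT, lies entirely within it. The mature strand (21896930 to 21896950, 21 bases) has its first 13 bases inside the tRNA gene and its last 8 beyond the end of that gene. No other member overlapped a small RNA gene of another kind in the RefSeq table. That table gives no strand for the tRNA gene, and whether the reads on Mir1983 were cut from a hairpin or from tRNA precursors was not tested. Below, the hairpin and the mature strand are shown with the bases of the tRNA gene in capitals, which makes the crossing of its end visible.
Mir1983 hairpin: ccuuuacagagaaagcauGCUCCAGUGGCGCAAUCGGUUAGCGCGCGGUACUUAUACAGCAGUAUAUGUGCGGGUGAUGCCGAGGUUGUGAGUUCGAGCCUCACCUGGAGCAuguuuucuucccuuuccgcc
miR-1983: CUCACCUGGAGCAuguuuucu

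**Figure D2:**
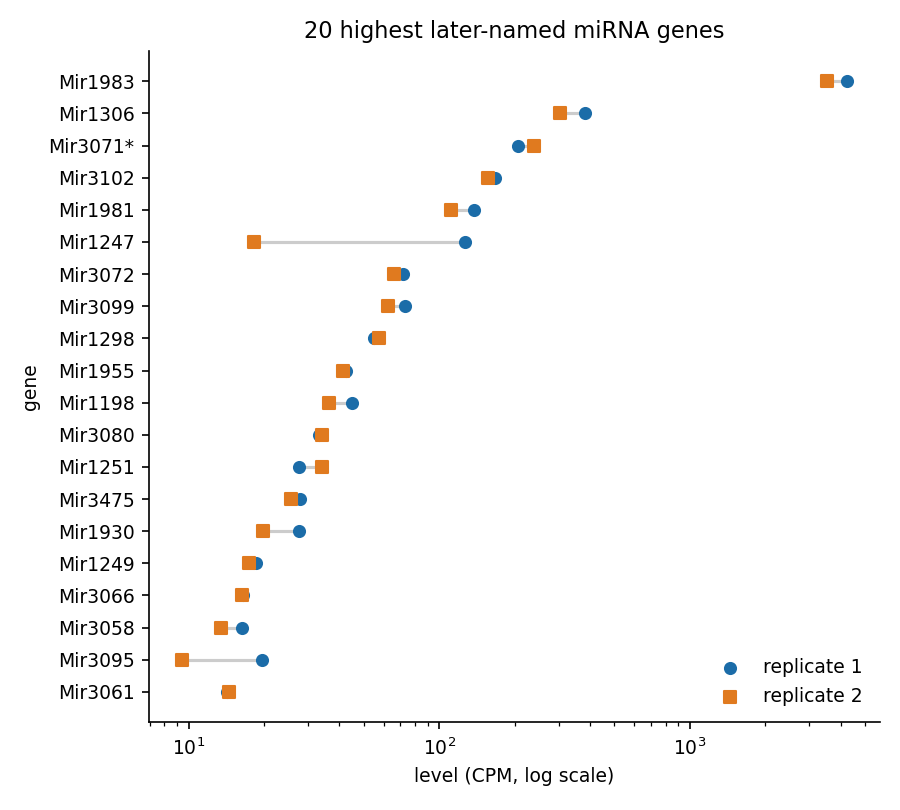
Level in CPM on a log axis of the 20 later-named genes with the highest means, with 1 point per library; the grey line joins the libraries. Mir1983 lies near 3874 CPM, the next gene, Mir1306, near 342 CPM, and the widest gap between libraries is that of Mir1247, at 127 and 18.2 CPM; the asterisk marks the identifier that may hold reads of Mir136.

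The order below Mir1983 was largely repeated by the libraries: of the 171 pairs formed by the other 19 of the 20 highest members, 152 stood in the same order in both. Among the 20 highest, 9 of the 19 neighbouring pairs had means that differed by more than the larger of their SDs. Over all 48 detected members, Pearson's r of log2(CPM + 1) between the libraries was 0.964, and over the 285 detected genes numbered below 1000 it was 0.993. These are descriptions across genes, which are not independent replicates, and the members span lower counts.

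By position, the share detected was highest for hairpins that fill a short intron. In 7 members both hairpin ends lay within 10 bases of the ends of an annotated intron, the geometry of a mirtron, and all 7 had counts. Of these, 4 were detected (57.1%), against 13 of 41 in exons (31.7%), 25 of 65 in longer introns (38.5%) and 6 of 40 without a host gene (15.0%), and no test was made of these shares. Among genes numbered below 1000 the corresponding counts were 2 of 2, 57 of 80, 121 of 206 and 105 of 177.

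**Figure D3:**
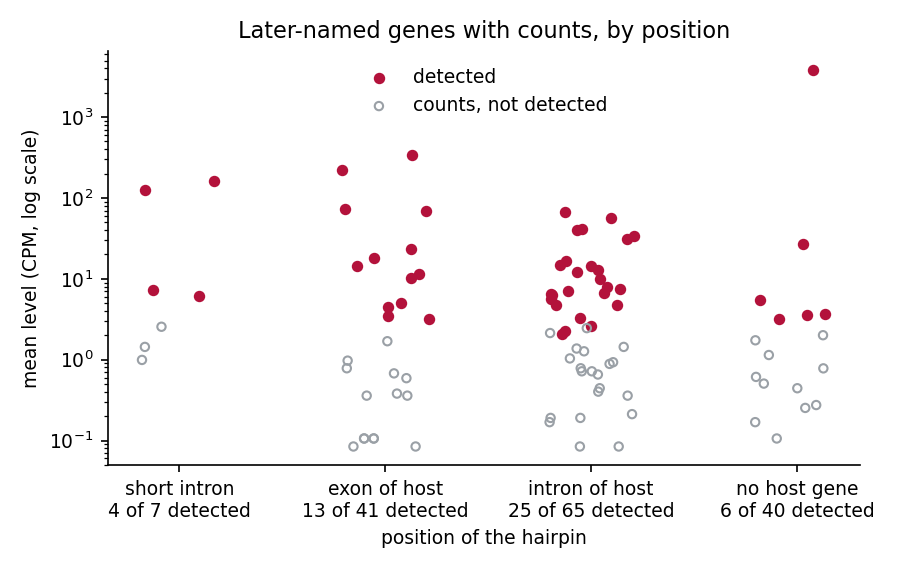
Mean CPM of 2 libraries on a log axis for each later-named gene with at least 1 count, by the position of its hairpin; filled points were detected and open points were not. Detection was 4 of 7 in short introns, 13 of 41 in exons, 25 of 65 in introns and 6 of 40 without a host, and the point at the top right is Mir1983.

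Mir3102, in Arhgef17 on chromosome 7 (100882306 to 100882409, minus strand), led the class with 785 and 932 counts, or 166 and 157 CPM (162 ± 6.47). It is annotated with 4 mature strands. Mir1981, in Marc2, which encodes a mitochondrial amidoxime-reducing enzyme, on chromosome 1 (184822407 to 184822488, minus strand), had 652 and 658 counts, or 138 and 111 CPM (125 ± 19.2). The libraries agreed in placing these hairpins above every member in a longer intron. Mir3062, in the purine synthesis gene Pfas, had 34 and 44 counts (7.20 and 7.42 CPM), and Mir1224, in Vwa5b2 on chromosome 16 (20604452 to 20604536, plus strand), had 41 and 21 counts (8.69 and 3.54 CPM). The undetected members of the class were Mir1982 in Oaz1, which encodes an inhibitor of polyamine synthesis, with 5 and 24 counts, Mir1231 in Nav1 with 8 and 7, and Mir3547 in Baiap3 with 3 and 8. A further 12 members had only 1 end at an intron end, and 5 of them were detected, at 2.64 to 11.6 CPM.

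Introns begin with GT and end with AG, so a hairpin that is a whole intron should carry both. Of the 7 short-intron hairpins, 5 began with GT and ended with AG, and 0 of the 146 other members did. The class was itself chosen by intron ends, so this contrast follows largely from that choice and is no separate test. The 3 detected hairpins of the list of known mirtrons are shown as DNA from GENCODE M21 transcripts (GRCm38), 5′ to 3′ on the host's strand, with the splice-site dinucleotides in capitals.
Mir3102: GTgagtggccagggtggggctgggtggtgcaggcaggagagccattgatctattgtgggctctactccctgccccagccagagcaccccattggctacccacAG
Mir1981: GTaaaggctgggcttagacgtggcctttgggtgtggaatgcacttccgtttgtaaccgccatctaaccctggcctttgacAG
Mir1224: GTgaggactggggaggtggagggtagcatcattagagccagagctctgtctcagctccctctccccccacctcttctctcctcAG

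Among hairpins in exons, the highest was Mir1306, which lies in an exon of Dgcr8 on chromosome 16 (18284239 to 18284317, minus strand). Dgcr8 encodes the partner of Drosha, and Drosha is known to cut hairpins in the Dgcr8 transcript itself. Mir1306 had 1799 counts in each library, which at their depths is 381 and 303 CPM (342 ± 55.0). Its neighbour in the same transcript, Mir3618, was not analysed here, because no gene identifier was matched to that symbol. The entry named Gm24572, 233 bases from Mir1306 on the same strand, had 6 counts in each library (1.27 and 1.01 CPM). Whether that entry corresponds to Mir3618 was not tested. The exonic members next in level, the entry named Mir3071 (222 CPM), Mir1247 (72.7 CPM) and Mir3072 (68.7 CPM), lie in the Dlk1-Dio3 region and are described below. After them, Mir1930, in an exon of the ubiquitin-conjugating enzyme gene Ube2g2, had 27.5 and 19.7 CPM, Mir1249 had 18.6 and 17.4 CPM, and Mir3061, in an exon of the protein phosphatase gene Ppp2ca, had 14.2 and 14.5 CPM.

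The imprinted Dlk1-Dio3 region of chromosome 12, where many miRNA genes are expressed from the maternal chromosome, held 7 members in the tables, and 5 of them were detected. Parental origin was not measured here. The entry named Mir3071 (in an exon of Rtl1) and Mir1247 (in Dio3os) lie on the minus strand, and Mir1188, Mir3070a and Mir3072 on the plus strand. The entry named Mir3071 had 971 and 1415 counts, or 206 and 239 CPM (222 ± 23.3). Its identity is uncertain: the identifier's version in the tables is older than that of GENCODE M21, the identifier is the lowest of the 73 members numbered from 3000, and in M21 the hairpin (109595318 to 109595397, minus strand) covers Mir136 on the other strand, which has no identifier of its own in the tables. Nearly all reads lay on 1 strand, since the opposite strand of the entry held 1 and 8 counts. Whether that strand is the one of Mir3071 or the one of Mir136 could not be settled here. Leaving Mir3071 out, 47 members were detected (30.9%), 4 exceeded 100 CPM, 12 of 40 exonic members were detected, and the members' share was 0.573% and 0.477%.

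The other detected members of the region were Mir3072 in Mirg, the long noncoding host of the distal cluster, with 71.6 and 65.8 CPM, Mir1247 in Dio3os, described below with the library differences, Mir1188 in the noncoding gene Rian with 52 and 86 counts (12.8 ± 2.46 CPM), and Mir3070a with 3.18 and 3.20 CPM. Mir3070b, which shares 20 bases with Mir3070a, had 1 and 4 counts. Mir1906-1, which shares 20 bases with Mir1906-2 on the X chromosome, had 0, and reads that map to several places are not counted. Mir1188, Mir3072 and Mir3070a stood below their nearest detected neighbours on the same strand that are numbered below 1000. Mir341, 227 bases from Mir1188, was at 949 and 1027 CPM. Mir410, 4083 bases from Mir3072, was at 188 and 181 CPM. Mir665, 1536 bases from Mir3070a, was at 593 and 606 CPM. In each of these pairs both libraries of the member lay under both libraries of the neighbour. No test of these differences between genes was made.

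**Figure D4:**
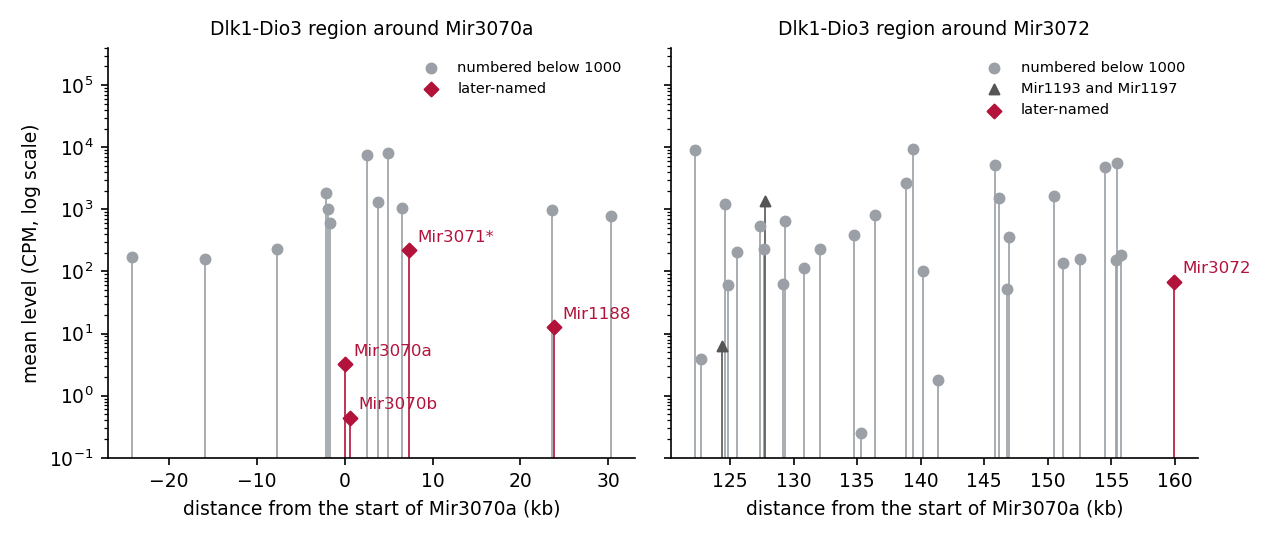
Mean CPM of 2 libraries on a log axis for miRNA genes with counts in the Dlk1-Dio3 region, by distance in kilobases from the start of Mir3070a, on the left around that gene and on the right around Mir3072; diamonds are later-named genes, circles genes numbered below 1000 and triangles Mir1193 and Mir1197, which the choice of members leaves out. Mir1188 stands at 12.8 CPM beside Mir341 at 988 CPM; the asterisk marks the identifier that may hold reads of Mir136, and Mir1247 lies outside the plotted ranges.

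Among hairpins in longer introns, the highest was Mir3099, in Usp29, a paternally expressed gene of the imprinted Peg3 domain on chromosome 7, with 344 and 369 counts or 72.9 and 62.2 CPM (67.6 ± 7.54). Mir1298, in an intron of the serotonin receptor gene Htr2c on the X chromosome, followed with 259 and 341 counts or 54.9 and 57.5 CPM (56.2 ± 1.86). The Htr2c intron carries several miRNA genes, and the other members there were much lower. Mir1264 had 22 and 28 counts (4.66 and 4.72 CPM), and Mir1912 had 0 and 2 counts, under the 3 counts that a 0 allows. Mir1298 was thus above Mir1264 in both libraries by a margin far beyond their SDs (1.86 and 0.0429 CPM).

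The next intronic members were lower. Mir1955, in Phf21a, a histone reader of a demethylase complex, had 42.4 and 41.2 CPM. Mir1198, in Gripap1 on the X chromosome, had 44.9 and 36.3 CPM. Mir3080, in the transcriptional coregulator gene Tcf20, had 33.1 and 34.1 CPM. Mir1251, in the noncoding gene Rmst, known from neural development, had 27.5 and 34.1 CPM. The order of Mir1955 and Mir1198 changed between the libraries, and their means differed by less than the larger SD. Mir3066 in Nol10 (16.4 ± 0.119 CPM) and Mir3058 in Nudt4 (14.9 ± 2.00 CPM) were lower again. Of the 40 members without a host gene, Mir3475 on the X chromosome (27.8 and 25.6 CPM) and Mir1969 (5.30 and 5.73 CPM) followed Mir1983.

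Few members that share sequence with another miRNA gene were detected. Reads that map to several places have an entry of their own in the tables, and their part in these low counts was not tested. Of the 24 members with a stretch of 20 bases in common with another miRNA gene, 1 was detected, Mir3070a. Of the 129 without one, 47 were detected (36.4%). The corresponding counts for genes numbered below 1000 were 69 of 173 and 216 of 292. Among genes that share no such stretch, the shares detected were 36.4% of members and 74.0% of genes numbered below 1000. Shared stretches were sought among miRNA genes only, so copies elsewhere in the genome were not covered. The family Mir3470 to Mir3473 had 12 members, of which 11 shared such a stretch. Only 2 of the family had any count, with at most 5 counts in a library, and 0 were detected.

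Detection also went with annotation. Of the 68 members with at least 2 mature strands in RefSeq, 35 were detected (51.5%), of the 68 with 1 strand 12 were (17.6%), and of the 17 with none 1 was. Annotated strands are themselves drawn from sequencing of other samples, and the same order held below 1000, with 231 of 283, 31 of 95 and 23 of 87. The hairpins were of like length in both number ranges (median 84 bases in each). Members had a higher G and C content, with a median of 53.1% against 46.7%, and a like predicted folding energy, -43.7 against -42.0 kcal/mol per 100 bases. Within the members, detected and undetected hairpins had median energies of -44.2 and -43.6 kcal/mol per 100 bases.

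Near the detection minimum, membership of the detected set rested on a few reads. The detected members with the lowest means were Mir1964 with 10 and 12 counts, Mir3093 with 12 and 12, and Mir3094 with 17 and 10. The undetected members with the highest means were Mir1982 with 5 and 24 counts, Mir3105 with 16 and 9, and Mir3109 with 9 and 14. These groups overlapped in mean level, from 2.07 to 2.64 CPM and from 2.13 to 2.55 CPM.

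The libraries were compared by a two-sided exact binomial test on each detected gene, with Benjamini-Hochberg adjustment over the 395 genes and a log2 ratio of at least 1 in either direction. Of the 48 detected members 4 were called, beside 4.05% of all genes tested, and all 4 were higher in replicate 1, beside 3.04% of all genes tested. Mir1247, Mir2137, Mir1224 and Mir3095 were the 4. The 4 genes are 8.33% of the members tested, and 8 of the 285 genes numbered below 1000 (2.81%) were called. The test covers counting error alone, so it does not measure how much such pools vary.

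Mir1247, in an exon of Dio3os, the antisense transcript of the thyroid hormone deiodinase gene Dio3 (chromosome 12, 110278048 to 110278129, minus strand), had 600 counts in replicate 1 and 108 in replicate 2. Its level was 127 CPM in replicate 1 and 18.2 CPM in replicate 2. The log2 ratio of replicate 2 over replicate 1 was -2.81 (interval -3.12 to -2.51, exact binomial adjusted p = 2.18e-109). It stayed called by edgeR's exact test with the biological coefficient of variation set to 0.2 (edgeR adjusted p = 3.73e-07). The other detected members of the Dlk1-Dio3 region, Mir3072, Mir3070a, Mir1188 and the entry named Mir3071, had log2 ratios of -0.13, 0.01, 0.39 and 0.21. None of them was called, and the 44 detected genes numbered below 1000 on chromosome 12 had a median log2 ratio of -0.05. Summed eye (891 and 1671 CPM), striated muscle (1176 and 1550 CPM), blood (511 and 627 CPM) and epithelial markers (30805 and 35800 CPM) were higher in replicate 2, while mesenchyme and cartilage (62763 and 62527 CPM), neural (811 and 796 CPM) and endothelial markers (29030 and 27230 CPM) were slightly lower. Their part in the difference of Mir1247 was not tested.

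The other 3 calls rested on fewer reads and did not pass edgeR's exact test at that coefficient. Mir3095, in an intron of the lysophosphatidic acid receptor gene Lpar1, had 93 and 56 counts, a log2 ratio of -1.07 (-1.57 to -0.57, exact binomial adjusted p = 2.96e-05, edgeR adjusted p = 0.769). Mir1224 had 41 and 21 counts, a log2 ratio of -1.30 (-2.13 to -0.51, exact binomial adjusted p = 0.00180, edgeR adjusted p = 0.727). Mir2137 had 33 and 15 counts, a log2 ratio of -1.47 (-2.46 to -0.55, exact binomial adjusted p = 0.00174, edgeR adjusted p = 0.651).

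**Figure D5:**
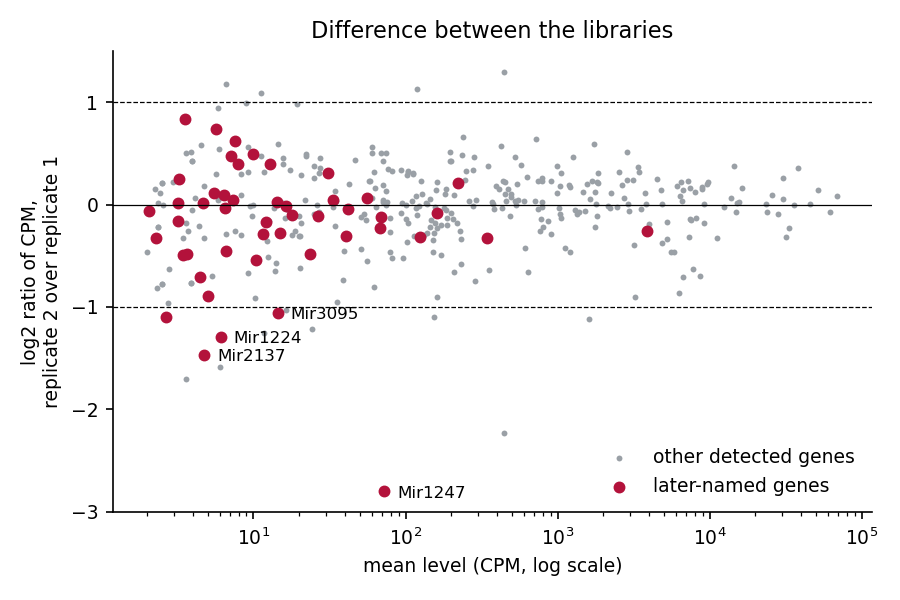
The log2 ratio of CPM, replicate 2 over replicate 1, against mean CPM on a log axis for the 395 detected genes; the 48 later-named genes are drawn large, the 4 called ones are named, and dashed lines mark a log2 ratio of 1 in either direction. Mir1247 lies lowest of the later-named genes, at -2.80 (-2.81 with the TMM library sizes of the test), and most later-named genes lie at the low end of the level axis.

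Without the limit on size, 10 of the 48 members differed between the libraries (20.8%), beside 51.9% of all genes tested and 63.2% of the detected genes numbered below 1000. Of the 10, 9 were higher in replicate 1, beside 77 of the 180 genes numbered below 1000 that differed. Mir1983 was among the 9 (log2 ratio -0.26, interval -0.29 to -0.23, exact binomial adjusted p = 5.16e-74). Only the entry named Mir3071 was higher in replicate 2 (log2 ratio 0.21, interval 0.09 to 0.33, exact binomial adjusted p = 0.00122). With low counts a given ratio is harder to call, so a smaller share does not show that members differed less. The median absolute log2 ratio was 0.29 over the detected members and 0.22 over the genes numbered below 1000, and 38 of 48 members (79.2%) and 254 of 285 such genes (89.1%) lay within 1.5-fold. Of the detected members, 30 were higher in replicate 1 and 18 in replicate 2, with a median log2 ratio of -0.11, against 0.04 below 1000.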

How the data were processed

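The deposited tables, 1 for each library, hold raw read counts for each miRNA gene on both strands, on the gene's own strand and on the opposite strand, aligned to mm10 per the labels. The aligner and counter are not given in the sources used here. Own-strand counts were used; the table has no header, and that strand was taken as the one holding 96.8% and 96.7% of the reads on genes. Entries that name no gene stayed out of the library sizes: unmapped reads were 25.7% and 19.4% of reads, and reads with several mapping places 26.0% and 27.9%.

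Symbols, positions and hairpins came from GENCODE M21 (GRCm38), which matched 1894 of 1973 identifiers, and mature strands from RefSeq (138 members matched). The share of repeat-masked bases, planned as a feature, was not computed, as it needs genome sequence that was not used here. Folding energies were computed with ViennaRNA 2.7.2.

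Libraries were compared by an exact binomial test against TMM library sizes (edgeR 4.0.16, R 4.3.3, factors 0.998 and 1.002). The test was tried on counts simulated with counting error alone, as the test itself assumes. That trial therefore says nothing of false calls between pools that vary by more than counting error. Alternatives were both strands, other minimums, each library alone, other denominators, genes sharing sequence left out, size factors of DESeq2 1.42.0, plain sums, and edgeR's exact test at a fixed coefficient of variation of 0.2.

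Genes named in the text are the 20 members with the highest means, those called between libraries, those detected with a miRNA gene on the other strand, listed locus members with counts, 3 on each side of the detection minimum and 3 for each position class. A further 7, named for a shared seed, a short intron or a count of 0, were added after their values were seen. The members and lists were chosen with earlier results of these data known.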

Additional observations from a re-analysis of the deposited data

Results flagged for a closer look

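Reads on the strand opposite to the entry named Mir3071, which the comparisons do not use, numbered 1 in replicate 1 and 8 in replicate 2, the latter above the 3 counts that a count of 0 allows. The identity of that entry is uncertain, as Mir136 lies on the other strand there.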

How the results depend on the processing

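Counting both strands, leaving out genes that share 20 bases, or leaving out Mir3071 (chosen after seeing the data) kept the number detected within 1.5 times, and the share and median within 1 SD between libraries. With a minimum of 100 counts 15 members were detected, and with 1 count in either library 97. The median level of detected members was 6.60 CPM at a minimum of 5, 67.6 CPM at 100 and 2.28 CPM without a minimum. With 1 library left out, the number detected ranged from 50 to 53, the share from 0.501% to 0.593% and the median from 8.43 to 8.48 CPM. Over all reads the members' share was 0.239%, and without Mir1983 (chosen after seeing the data) it was 0.160%.

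Members called between the libraries numbered 4 with DESeq2 size factors, plain sums or both strands, 5 at a minimum of 5, 6 without one, 1 (Mir1247) at a minimum of 100 or with edgeR's exact test at a coefficient of 0.2, and 10 without the limit on size. Leaving out a library gives no such test. Of 42 members named in the text, 3 were at 0, and 10 moved by over 1.5 times when 1 library was left out: Mir1247, Mir2137, Mir1224, Mir3095, Mir3094, Mir1982, Mir3105, Mir3547, Mir3070b and Mir1912. Both strands or TMM sizes moved a level of these members by at most 3.29%. No paired analysis was possible because there is only 1 group. Depth limits all statements on the 105 undetected members. Of these, 23 share a stretch of sequence with another miRNA gene and 82 do not. The part of uncounted reads that map to several places was not tested.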
